A study of Mus musculus with 12 samples.

Results

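The genes of the constitutive 26S proteasome were followed through 12 bulk RNA-seq libraries of mouse lung. Members were protein-coding genes named Psma1 to Psma7, Psmb1 to Psmb7, Psmc1 to Psmc6, or Psmd followed by a number. The rule used names only, and it found 34 genes among the 78298 gene entries of the count table. By known role they were 7 alpha-ring genes, 7 beta-ring genes, 6 base ATPases, 3 other base subunits, 8 lid subunits and 3 assembly chaperones. The chaperones, Psmd5, Psmd9 and Psmd10, carry subunit names but leave the particle before it is finished, so the rule is wider than the word subunit. Conversely, Adrm1 and Sem1 encode subunits that the naming rule does not reach, and they are described with the rest of the pathway.

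The series compared macroscopic LLC tumours with normal adjacent lung, each taken from mice labelled HDM or VEH, with 3 libraries in each of the 4 groups. HDM is house dust mite, given chronically according to the series' design text, and VEH and LLC are used as the labels give them. Mouse strain, age and sex, and the dose and timing of HDM, are not given in the sources used here. Tumour and adjacent lung were cut apart by hand under a microscope, so every library is a mixture of cell types. In such bulk samples fewer cells of a type and less RNA per cell cannot be told apart. The labels number the libraries as replicates without stating that each came from a separate mouse, so p-values measure the spread between these libraries, which may be partly technical.

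The 26S proteasome is the main protease of the cytosol and nucleus for proteins tagged with ubiquitin. Its 20S core is a barrel of alpha rings, which gate the entrance, around beta rings, which hold the protease sites, and its 19S cap has a base of ATPases that unfold the substrate and a lid that removes the ubiquitin. Subunits are needed in fixed proportions, and transcription factors such as Nfe2l1 are known to raise many subunit genes together when proteasome activity is short. In immune cells and in cells exposed to interferon, Psmb8, Psmb9 and Psmb10 replace the catalytic subunits Psmb5, Psmb6 and Psmb7 to form the immunoproteasome.

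Total counts ranged from 20608682 to 32765364 per library. The lowest count of any member in any library was 501, so all 34 members passed the filter on low counts with every group well above it, and 22190 genes were tested in all. Exons of 13 members overlap a tested gene on the opposite strand, and for 8 of them (Psma3, Psmb4, Psmb7, Psmc3, Psmc5, Psmd4, Psmd10 and Psmd13) that gene had over 10% of the member's count. Whether counting used the strand is not given in the sources used here, so these values are less certain. Some libraries stood apart in their content. The summed level of 10 cell-cycle markers was between 39.9 and 54.2 CPM in 5 normal libraries and 208 CPM in normal VEH replicate 2, against 638 to 1293 CPM in tumours. Alveolar markers summed to 48.5 CPM in tumour HDM replicate 3 and to between 2393 and 9088 CPM in the other tumours. Library names share 6 prefixes, each joining 1 normal and 1 tumour library, and 2 of these prefixes join libraries with different treatment labels. Groups below follow the labels, and results without those 4 libraries are given where they differ.

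In CPM, here counts brought to a common library total after TMM scaling, the 34 genes summed to 3334, 3252 and 3243 in the normal VEH libraries and to 2748, 2902 and 2715 in normal HDM. The same sum was 4510, 4150 and 3939 CPM in tumour VEH and 3319, 4008 and 4117 CPM in tumour HDM. Every VEH tumour lay above every VEH normal library, and every HDM tumour lay above every HDM normal library, whereas the lowest tumour, HDM replicate 1, lay just below the highest normal library. As a share of all counts the members took 0.264% to 0.315% in normal lung and 0.369% to 0.456% in tumours.

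Compared per length, as TPM computed with the deposited gene lengths, the genes differed widely, and their order rests on those lengths. For 0 of the 34 members did the deposited length equal the exon length in GENCODE M39. Psma6 had 1234 bases and Psmd9 7248, and their normal VEH means were 113 and 42.4 CPM, a narrower spread than in TPM. In normal VEH lung the highest were the alpha-ring gene Psma6 (175 ± 43.6 TPM, SD, n = 3), the beta-ring gene Psmb4 (169 ± 29.6 TPM) and the ATPase Psmc5 (156 ± 6.90 TPM). These 3 neighbours in the order did not differ beyond their spread. The lowest were the chaperones Psmd9 (11.0 ± 1.47 TPM) and Psmd5 (14.2 ± 0.470 TPM), followed by the lid gene Psmd11 (21.5 TPM). In tumour VEH libraries Psma6 was again highest (323 ± 40.0 TPM) and Psmd9 lowest (14.5 ± 0.360 TPM). TPM is not TMM-scaled, so levels are compared between libraries only in CPM.

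**Figure D1:**
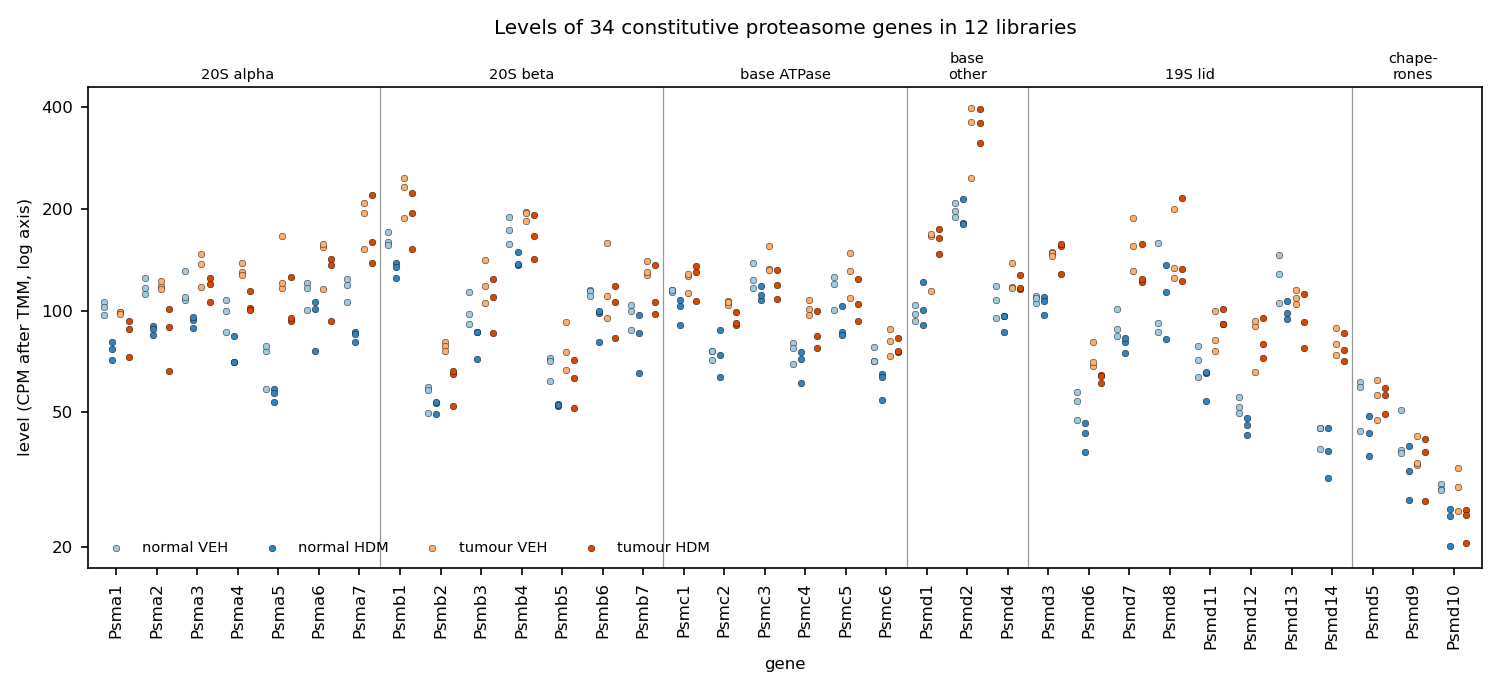
Level of each of the 34 genes (x axis, ordered by role) in CPM after TMM scaling (y axis, log scale), with 1 point per library and colours for the 4 groups. Psmd2 and Psmb4 lie near the top of the range and the chaperones Psmd9 and Psmd10 near the bottom, and points of a group lie close together for most genes.

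Replicates of a group lay close together for these genes. The median SD of log2 CPM within groups was 0.17 over the members against 0.46 over all genes tested. The 2 sets were not matched on level: every member had at least 501 counts in every library, whereas genes of far lower count were among those tested. Psmd3, a lid scaffold gene, was the steadiest with an SD of 0.10, and Psmd8, also of the lid, varied most with an SD of 0.42.

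The first comparison asked which of these genes differ between tumour and adjacent lung in VEH mice. Of the 34 members, 14 were higher in tumours, 0 were lower and 20 did not pass (edgeR quasi-likelihood test, adjusted p below 0.05). Over all genes tested, 38.9% passed in this comparison, 18.2% as higher and 20.6% as lower, so the share of members called is close to the background, although all called members were on the higher side. Log2 fold changes were positive for 31 members and negative for 3, against 46.4% of all genes above 0. Their median was 0.31, a 1.24-fold higher level, against a median of -0.11 over all genes, and values ran from -0.21 for Psmd13 to 0.92 for Psma5. Tumour and normal libraries did not overlap for 15 members, all higher in tumours, against 23.9% of all genes higher without overlap and 28.5% lower.

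In HDM mice 16 of 34 members were higher in tumours, 0 were lower and 18 did not pass (edgeR). Here 51.9% of all genes passed, 23% as higher and 28.9% as lower. The members' median was 0.36 against -0.08 over all genes, 32 members were above 0 against 47.7% of all genes, and the range ran from -0.09 for Psmd13 to 1.04 for Psma7. Libraries did not overlap for 19 members, all higher in tumours, against a background of 29.6% higher and 33.5% lower. The count of 16 rested on scaling and on 1 library: it was 26 with scaling by library size only, where 27.8% of all genes were called higher, and 26 without tumour HDM replicate 1, the tumour of lowest summed level, where 22.2% were. With a block for library-name prefix the count was 9 in either treatment, where 13.8% of all genes were called higher under VEH and 17.1% under HDM.

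The VEH and HDM contrasts compared separate libraries, but 1 fit over all 12 gave the spread for both, so their calls are not independent. In both contrasts 12 genes were called higher: Psma4, Psma5, Psma7, Psmb1, Psmc2, Psmd1, Psmd2, Psmd3, Psmd6, Psmd7, Psmd12 and Psmd14. These are 12 of the 14 genes called under VEH (85.7%) and 12 of the 16 called under HDM (75.0%). Of all genes tested 15.4% were called higher in both, which is 84.4% of those higher under VEH and 66.8% of those higher under HDM, so the share of overlap under VEH was near that of all genes. Psmb2 and Psmc4 were called under VEH alone, Psmb7, Psmc6, Psmd4 and Psmd11 under HDM alone, and 16 in neither; the difference between treatments is tested below. Over the 16 fits made for each contrast (the one above and 15 alternatives), Psma5, Psmd2, Psmd7, Psmd12 and Psmd14 were called in every fit of both contrasts.

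The parts of the particle differed in size of change. Median log2 fold changes under VEH and HDM were 0.61 and 0.64 for the base subunits that are not ATPases, 0.46 and 0.59 for the lid, 0.34 and 0.39 for the alpha ring, 0.27 and 0.24 for the beta ring, 0.16 and 0.32 for the ATPases, and 0.0031 and 0.09 for the chaperones. These medians are descriptions over 3 to 8 genes, and the order of the parts was not tested.

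**Figure D2:**
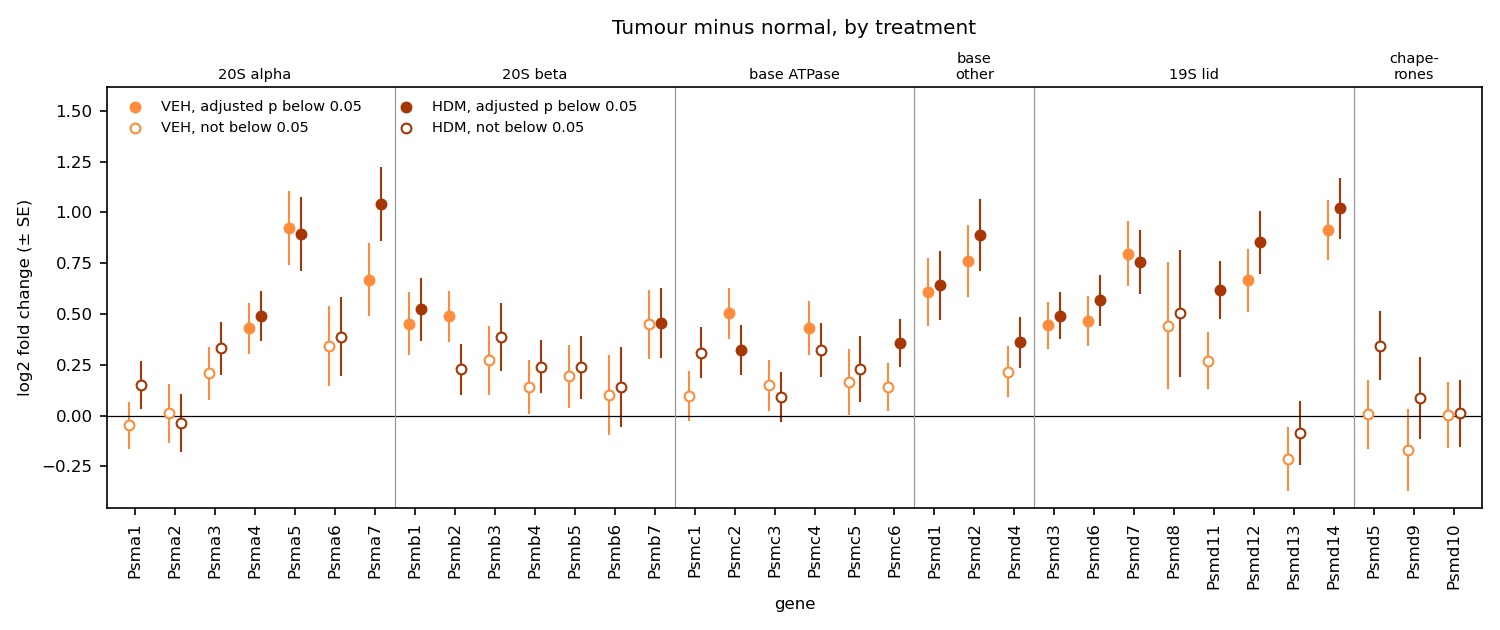
Log2 fold change of tumour against normal lung (y axis, ± SE) for each gene (x axis, ordered by role) under VEH and under HDM, with filled points for adjusted p below 0.05. The largest values are in Psma5, Psma7 and the lid gene Psmd14, and no filled point lies below 0.

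In the 19S lid, which strips ubiquitin from substrates, 5 of 8 genes were called higher under VEH and 6 of 8 under HDM. Of all genes tested 18.2% and 23% were. Psmd14 (ENSMUSG00000026914, chromosome 2, 61542026 to 61631607 on GRCm39) encodes the deubiquitinase that cuts the chain from the substrate as it enters the pore. Its levels were 38.9, 44.9 and 44.9 CPM in normal VEH, 38.3, 44.9 and 31.9 CPM in normal HDM, 88.7, 74.2 and 79.5 CPM in tumour VEH, and 76.7, 71.2 and 85.9 CPM in tumour HDM. No tumour overlapped any normal library, and the gene was 1.88-fold higher under VEH (log2 0.91 ± 0.15, SE, edgeR adjusted p = 0.00144) and 2.03-fold higher under HDM (log2 1.02 ± 0.15, adjusted p = 0.000432).

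Psmd7, the partner of Psmd14 that has the same fold without enzyme activity, moved with it. Its levels were 84.4, 88.1 and 101 CPM in normal VEH, 81.0, 83.2 and 75.2 CPM in normal HDM, 188, 131 and 156 CPM in tumour VEH, and 122, 124 and 158 CPM in tumour HDM. All tumours lay above all normal libraries, at log2 0.80 ± 0.16 under VEH (edgeR adjusted p = 0.00368) and 0.76 ± 0.16 under HDM (adjusted p = 0.00295). Among the scaffold genes of the lid, Psmd12 rose by log2 0.67 ± 0.15 and 0.85 ± 0.16 under VEH and HDM, Psmd6 by 0.47 ± 0.12 and 0.57 ± 0.13, and Psmd3 by 0.44 ± 0.11 and 0.49 ± 0.11 (edgeR adjusted p between 0.00134 and 0.0147 for these 6 values).

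The remaining lid genes differed. Psmd11, a subunit that has been linked to the amount of assembled 26S particle, measured 63.8, 78.5 and 71.7 CPM in normal VEH, 54.1, 65.3 and 65.7 CPM in normal HDM, 100, 82.2 and 75.8 CPM in tumour VEH, and 91.4, 101 and 91.1 CPM in tumour HDM. Normal and tumour libraries overlapped under VEH (log2 0.27 ± 0.14, edgeR adjusted p = 0.145) and did not under HDM (log2 0.62 ± 0.14, adjusted p = 0.00466). Psmd8 had values of 0.44 ± 0.31 and 0.50 ± 0.31 that did not pass, with the widest error of all members.

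Psmd13 was the lowest member in both contrasts. It measured 146, 106 and 129 CPM in normal VEH, 94.9, 98.7 and 107 CPM in normal HDM, 115, 109 and 104 CPM in tumour VEH, and 77.6, 92.8 and 112 CPM in tumour HDM. The groups overlapped, and the log2 values of -0.21 ± 0.16 and -0.09 ± 0.16 did not pass (edgeR adjusted p = 0.297 and 0.674), and the sign under HDM changed in some fits.

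In the 19S base, the scaffold subunits that catch ubiquitin and its carriers were higher. Psmd2, which docks shuttle receptors, was the most abundant member in CPM, at 198 ± 9.54 in normal VEH, 193 ± 19.2 in normal HDM, 336 ± 78.5 in tumour VEH and 356 ± 40.3 in tumour HDM (SD, n = 3). Its lowest tumour value, 247 CPM in tumour VEH replicate 2, lay above its highest normal value of 215 CPM, and it rose by log2 0.76 ± 0.18 and 0.89 ± 0.18 (edgeR adjusted p = 0.00759 and 0.00225). Psmd1, the other large scaffold, rose by log2 0.61 ± 0.17 and 0.64 ± 0.17 (edgeR adjusted p = 0.0170 and 0.00918). Psmd4, a ubiquitin receptor, had log2 0.22 ± 0.12 under VEH, which did not pass, and 0.36 ± 0.12 under HDM (edgeR adjusted p = 0.181 and 0.0317). Its HDM call held in 8 of 16 fits, and non-coding genes overlap its exons on the opposite strand.

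The 6 ATPases of the base form the ring that pulls the substrate in, and 2 of 6 were called higher under either treatment. This is 33.3%, against 18.2% of all genes under VEH and 23% under HDM. Psmc2 rose by log2 0.50 ± 0.13 under VEH and 0.32 ± 0.13 under HDM (edgeR adjusted p = 0.0104 and 0.0496), the latter in 7 of 16 fits. Psmc4 had 0.43 ± 0.13 and 0.32 ± 0.13 (adjusted p = 0.0267 and 0.0611, the VEH call in 10 of 16 fits), and Psmc6 had 0.14 ± 0.12 and 0.36 ± 0.12 (adjusted p = 0.356 and 0.0273, the HDM call in 10 of 16 fits). Psmc1, Psmc3 and Psmc5 passed in neither contrast.

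The alpha ring held both extremes of the core. In each contrast 3 of its 7 genes were called higher (42.9%), against 18.2% of all genes under VEH and 23% under HDM. Psma5 (ENSMUSG00000068749, chromosome 3, 108164086 to 108187298) measured 75.8, 78.7 and 58.5 CPM in normal VEH, 58.7, 57.2 and 53.6 CPM in normal HDM, 166, 117 and 121 CPM in tumour VEH, and 93.5, 126 and 95.5 CPM in tumour HDM. All tumours exceeded all normal libraries, by log2 0.92 ± 0.18 under VEH (edgeR adjusted p = 0.00340) and 0.90 ± 0.18 under HDM (adjusted p = 0.00242). Its pseudogene Psma5-ps, a separate entry, held 126 counts over all libraries.

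Psma7 (ENSMUSG00000027566, chromosome 2, 179678155 to 179684421) measured 106, 124 and 119 CPM in normal VEH, 86.3, 80.6 and 85.4 CPM in normal HDM, 195, 208 and 152 CPM in tumour VEH, and 139, 160 and 221 CPM in tumour HDM. Tumours again lay above normal libraries throughout, by log2 0.67 ± 0.18 under VEH and 1.04 ± 0.18 under HDM (edgeR adjusted p = 0.0147 and 0.00104). Psma4 measured 108, 86.5 and 100 CPM in normal VEH, 70.7, 70.8 and 83.9 CPM in normal HDM, 131, 138 and 128 CPM in tumour VEH, and 102, 114 and 101 CPM in tumour HDM. It did not overlap between tissues within a treatment and rose by log2 0.43 ± 0.12 and 0.49 ± 0.12 (edgeR adjusted p = 0.0203 and 0.00768).

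At the other end of the same ring, Psma1 measured 106, 97.0 and 103 CPM in normal VEH, 71.5, 76.9 and 80.9 CPM in normal HDM, 99.4, 98.9 and 97.8 CPM in tumour VEH, and 72.8, 88.2 and 93.3 CPM in tumour HDM. Psma2 measured 125, 112 and 117 CPM in normal VEH, 89.9, 85.0 and 88.4 CPM in normal HDM, 118, 122 and 116 CPM in tumour VEH, and 66.4, 89.3 and 101 CPM in tumour HDM. Tissues overlapped for both genes in both treatments, with log2 values between -0.05 and 0.15 that did not pass. The sign of Psma1 under VEH and of Psma2 under HDM changed with the scaling or the libraries used, and Psma1 under HDM, at 0.15, was called higher in 2 of 16 fits. Neighbours in 1 ring thus had log2 fold changes from near 0 to 0.92 under VEH. In levels per length the spread among the 7 alpha genes of normal VEH lung ran from Psma3 (56.3 TPM) to Psma6 (175 TPM). This spread rests on the deposited lengths, since in CPM the means of Psma3 and Psma6 were 116 and 113.

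In the beta ring 2 of 7 genes were called higher under each treatment (28.6%), against 18.2% of all genes under VEH and 23% under HDM. Psmb1, which has no protease site, rose in both by log2 0.45 ± 0.16 and 0.52 ± 0.16 (edgeR adjusted p = 0.0411 and 0.0171), the VEH call in 7 of 16 fits. Of the catalytic subunits, Psmb5, the chymotrypsin-like site and main target of proteasome inhibitor drugs, measured 72.5, 61.9 and 71.1 CPM in normal VEH, 52.1, 53.0 and 52.7 CPM in normal HDM, 75.7, 92.5 and 66.7 CPM in tumour VEH, and 51.6, 63.1 and 71.5 CPM in tumour HDM. Tumours overlapped normal libraries in either treatment, and its log2 values of 0.19 ± 0.15 and 0.24 ± 0.15 did not pass (edgeR adjusted p = 0.332 and 0.216).

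Psmb6, the caspase-like site, measured 115, 114 and 110 CPM in normal VEH, 98.3, 100 and 80.6 CPM in normal HDM, 110, 159 and 95.0 CPM in tumour VEH, and 83.0, 106 and 118 CPM in tumour HDM. The groups overlapped, at log2 0.10 ± 0.20 and 0.14 ± 0.20 (edgeR adjusted p = 0.699 and 0.567), and the sign of these small values changed in some fits. Psmb7, the trypsin-like site, measured 87.9, 100 and 104 CPM in normal VEH, 86.2, 97.0 and 65.4 CPM in normal HDM, 140, 128 and 130 CPM in tumour VEH, and 98.0, 106 and 137 CPM in tumour HDM. Tumour and normal libraries did not overlap in either treatment, at log2 0.45 ± 0.17 under VEH, which did not pass, and 0.46 ± 0.17 under HDM (edgeR adjusted p = 0.0577 and 0.0434). The HDM call held in 6 of 16 fits, and Psmb7 shares 2817 exon bases with Nek6 on the opposite strand, whose count was 93.9% of its own.

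The 3 chaperones of 19S base assembly were called in neither contrast. Psmd10 measured 30.7, 29.6 and 29.5 CPM in normal VEH, 24.7, 25.9 and 20.1 CPM in normal HDM, 30.2, 34.3 and 25.6 CPM in tumour VEH, and 20.6, 25.8 and 24.9 CPM in tumour HDM. Psmd9 measured 50.8, 38.7 and 37.8 CPM in normal VEH, 27.6, 33.5 and 39.8 CPM in normal HDM, 35.0, 42.7 and 35.3 CPM in tumour VEH, and 27.4, 41.6 and 38.1 CPM in tumour HDM. Both genes overlapped between tissues in either treatment. Psmd5 measured 61.6, 44.1 and 59.6 CPM in normal VEH, 37.2, 48.8 and 43.6 CPM in normal HDM, 62.3, 47.3 and 56.5 CPM in tumour VEH, and 49.3, 56.3 and 58.9 CPM in tumour HDM. It alone of the 3 did not overlap between tissues under HDM, at log2 0.34 ± 0.17 (edgeR adjusted p = 0.110), and the 5 other values of the chaperones lay between -0.17 and 0.09. Each of the 3 genes changed sign in at least 1 contrast in some fits.

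The promoters of these genes were set beside the changes because the members are known to share transcription factors. Sequence was read from the GRCm39 genome at the start of the canonical GENCODE M39 transcript, and 4 motifs were searched on both strands from 250 bases before to 50 after each start. TGACNNNGC, the core of the antioxidant response element that Nfe2l1 and Nfe2l2 bind, was present in 7 of 34 members (20.6%) and in 13.5% of the 15062 promoters of tested protein-coding genes. CCGGAAG, bound by ETS factors, was present in 11 members (32.4%) against 13.6%, and CCAAT, bound by NF-Y, in 15 members (44.1%) against 38.8%. TGANTCAGC, which overlaps the first motif wherever its N is C, was present in 0 members and in 1.04% of promoters. A match describes letters and not binding.

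The 180 bases before the start are shown for 3 genes called higher in tumours in at least 1 contrast and for 2 that were called in neither, with any of the 4 motifs in capitals. They are examples, chosen after the values were seen, of promoters that differ in the motifs they hold. On GRCm39 they are chr2:61541846-61542025 (plus strand, Psmd14), chr14:45567035-45567214 (plus strand, Psmc6), chr3:94949926-94950105 (minus strand, Psmd4), chr13:14787624-14787803 (plus strand, Psma2) and chr14:54855482-54855661 (minus strand, Psmb5), each 5′ to 3′ on the strand of its gene.
Psmd14: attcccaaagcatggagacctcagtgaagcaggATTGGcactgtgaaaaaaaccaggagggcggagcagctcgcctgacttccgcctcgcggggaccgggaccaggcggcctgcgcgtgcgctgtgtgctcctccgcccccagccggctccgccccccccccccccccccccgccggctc
Psmc6: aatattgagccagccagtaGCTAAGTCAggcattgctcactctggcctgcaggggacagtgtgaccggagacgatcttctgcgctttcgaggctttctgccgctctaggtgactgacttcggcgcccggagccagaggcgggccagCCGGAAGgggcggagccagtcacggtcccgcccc
Psmd4: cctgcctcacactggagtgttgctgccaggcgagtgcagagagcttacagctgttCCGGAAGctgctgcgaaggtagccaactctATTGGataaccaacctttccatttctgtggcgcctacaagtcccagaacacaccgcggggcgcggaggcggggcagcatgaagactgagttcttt
Psma2: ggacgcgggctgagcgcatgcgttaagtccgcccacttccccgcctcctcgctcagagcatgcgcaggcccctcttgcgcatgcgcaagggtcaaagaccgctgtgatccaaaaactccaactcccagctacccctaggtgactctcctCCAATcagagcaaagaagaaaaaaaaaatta
Psmb5: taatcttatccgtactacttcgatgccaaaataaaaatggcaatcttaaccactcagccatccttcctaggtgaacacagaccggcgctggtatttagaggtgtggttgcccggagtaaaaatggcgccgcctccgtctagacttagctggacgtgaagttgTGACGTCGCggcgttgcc
Psmc6 and Psmb5 carry TGACNNNGC in this stretch, and of these only Psmc6 was called higher, under HDM. Psmd14, with the second largest value under either treatment, has CCAAT alone among the 4 motifs, as has Psma2, whose values were near 0. Psmc6 and Psmd4 carry CCGGAAG. Over all members and the longer window, 8 of the 11 genes with CCGGAAG were called higher in tumours in at least 1 contrast, as were 4 of the 7 with TGACNNNGC, 7 of the 15 with CCAAT and 18 of all 34. Of all genes tested 18.2% were called higher under VEH, 23% under HDM and 15.4% in both. The share called in at least 1 contrast, which would match the member counts, is larger than any of these and was not computed. The share called among all promoters with each motif was not computed, so these counts only describe the members and were not tested.

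Pairing by library-name prefix gave a view that does not depend on the treatment labels. Of the 34 members, 20 were higher in the tumour in 6 of 6 prefix pairs, 7 in 5 pairs, 1 in 4, 4 in 3, 1 in 2 and 1 in 1. Psma1 was higher in 2 pairs and Psmd13 in 1. The number of members higher in the tumour was between 28 and 33 of 34 in 5 pairs and 23 in the pair of tumour HDM replicate 1 with normal HDM replicate 2, whose median difference of 0.09 was the lowest of the 6. Over all genes between 45.6% and 49.1% were higher in the tumour of a single pair. The share of all genes higher in 6 of 6 pairs was not computed, so the count of 20 has no background beside it. Without the 4 libraries whose prefixes join different treatments, the members' median under VEH was 0.49.

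**Figure D3:**
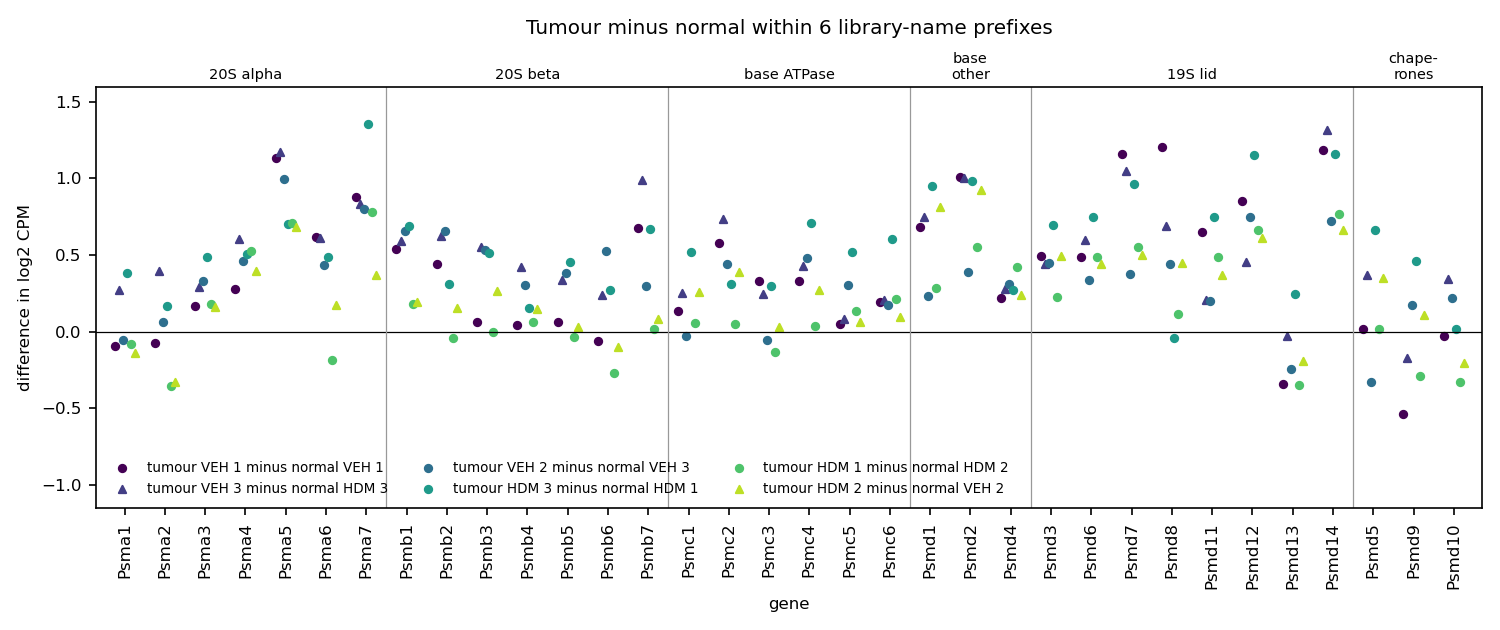
Difference in log2 CPM, tumour minus normal (y axis), for each gene (x axis, ordered by role) within each of the 6 library-name prefixes, with triangles for the 2 prefixes whose libraries have different treatment labels. Points lie above 0 in all 6 pairs for 20 genes, a count for which the share of all genes was not computed, and Psmd13 lies below 0 in 5 of 6.

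Tissue make-up moved with these differences. All 10 cell-cycle markers were called higher in tumours in both contrasts, with median log2 fold changes of 3.28 and 4.14, and all 8 endothelial markers were called lower, with medians of -2.77 and -3.91 (edgeR). Alveolar markers were called lower for 2 of 9 under VEH and 9 of 9 under HDM, with all 9 below 0 in both and medians of -2.59 and -4.16. Airway markers were called lower for 0 of 6 under VEH and 6 of 6 under HDM, with all 6 below 0 in both and medians of -1.88 and -5.50. Mitochondrially encoded genes held a mean of 3.90% of counts in normal VEH and 2.60% in normal HDM, against 1.21% in tumour VEH and 0.531% in tumour HDM. The part of these shifts in the proteasome values was not tested.

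The second question of the design was whether HDM changed the members within a tissue. In tumours 0 of 34 members passed (edgeR), against 0.0946% of all genes. An unadjusted p below 0.05 was reached by 3 members, all lower in HDM, against 16.7% of all genes and 11.3% as lower, and the DESeq2 Wald test called 2, Psma2 and Psmb2, both lower, where it called 5.91% of all genes and 4.76% as lower. The median was -0.20 against -0.03 over all genes, with 29 members below 0 against 52.7% of all genes. Libraries did not overlap for 6 members, all lower in HDM, against 10.7% of all genes. Without tumour HDM replicate 1 the median was -0.10, with a block for library-name prefix it was -0.11, and with scaling by library size only it was also -0.11 while the median of all genes was 0.05. The value with the block depends on the 2 prefixes that join different treatment labels, since only they link the treatments within a tissue. Markers of other cells were lower too without passing (edgeR): all 6 airway markers lay below 0 with a median of -3.79, all 8 endothelial markers with -1.25 and all 9 alveolar markers with -1.42. Of these 6, 6 and 2 had an unadjusted p below 0.05. Their part in the members' values was not tested.

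The 3 members of smallest unadjusted p in tumours, with levels given above except for Psmb2, were Psma2 (log2 -0.48 ± 0.14), Psmb2 (-0.36 ± 0.13) and Psma4 (-0.32 ± 0.12), at edgeR adjusted p between 0.194 and 0.246. Psmb2, a beta-ring subunit without a protease site, measured 59.5, 58.4 and 49.8 CPM in normal VEH, 53.2, 53.8 and 49.4 CPM in normal HDM, 80.8, 78.5 and 76.3 CPM in tumour VEH, and 52.2, 64.9 and 66.1 CPM in tumour HDM. Its VEH tumours lay above all other libraries.

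In normal adjacent lung 0 of 34 members passed (edgeR), as did 0% of all genes, and DESeq2 also called 0 members. An unadjusted p below 0.05 was reached by 9 members, all lower in HDM, against 5.54% of all genes and 3.62% as lower. The median was -0.28 against -0.01 over all genes, and 32 members lay below 0 against 51.5% of all genes. Normal HDM lay below normal VEH without overlap for 16 members, against 5.85% of all genes. With a block for library-name prefix the median was -0.11. Within a tissue that block can compare treatments only through the 2 prefixes that join different treatment labels. This value therefore depends on the labels of those 4 libraries.

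By role, the medians in normal lung were -0.39 for the alpha ring, -0.29 for the beta ring, -0.35 for the chaperones, -0.20 for the lid, -0.18 for the ATPases and -0.04 for the other base subunits. The smallest unadjusted p values belonged to Psma1 (log2 -0.42 ± 0.12), Psma4 (-0.39 ± 0.12) and Psma2 (-0.43 ± 0.14), whose HDM libraries all lay below their VEH libraries. Their edgeR adjusted p values were between 0.864 and 0.887. Cardiac muscle markers summed to 262, 43.5 and 17.9 CPM in normal VEH and 190, 437 and 420 CPM in normal HDM. Of the 262 CPM in VEH replicate 1, Actc1 made up 235. The mean log2 CPM of the 6 markers did not overlap, at 1.53, 2.70 and 0.83 in normal VEH and 4.51, 5.96 and 5.41 in normal HDM. All 6 lay above 0 (median log2 2.91), 4 with an unadjusted p below 0.05, and 0 passed (edgeR). All 3 adipocyte markers tested also lay above 0, 2 with an unadjusted p below 0.05, and 0 passed. The part of these markers in the lower member values was not tested.

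**Figure D4:**
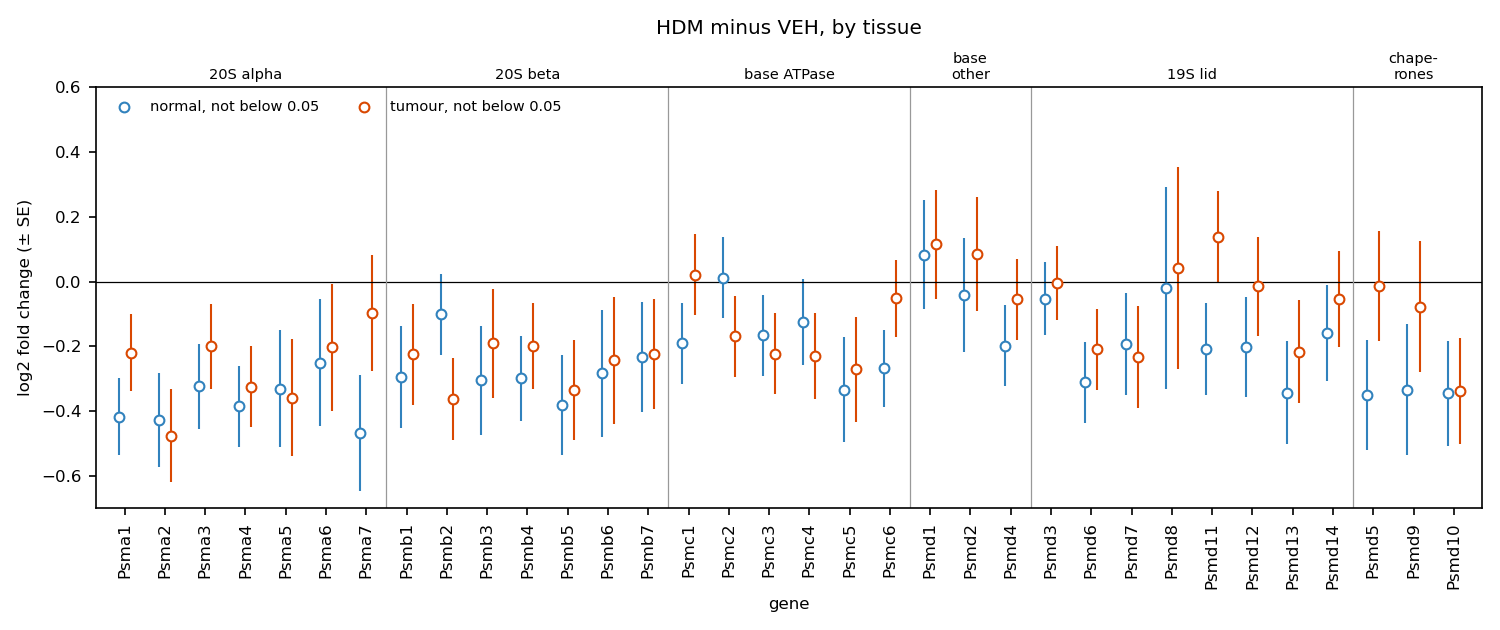
Log2 fold change of HDM against VEH (y axis, ± SE) for each gene (x axis, ordered by role) in tumours and in normal adjacent lung. All points are open because no member passed, and 29 of 34 lie below 0 in tumours and 32 of 34 in normal lung.

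The interaction, the tumour-normal difference under HDM minus that under VEH, asked whether HDM altered the tissue difference. In it 0 members passed (edgeR), as did 0% of all genes, and 0 members had an unadjusted p below 0.05 against 9.39% of all genes. DESeq2 called 0 members as well. The median was 0.07 against -0.02. The smallest unadjusted p values were those of Psmd11 (log2 0.35 ± 0.20), Psma7 (0.37 ± 0.25) and Psmb2 (-0.26 ± 0.18), with edgeR adjusted p between 0.575 and 0.621. The genes called in 1 treatment alone are therefore not shown to differ between treatments.

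The other genes of the pathway came from a list of 40, of which 39 could be tested. Under VEH 17 were called higher and 3 lower in tumours, and under HDM 17 higher and 7 lower, beside the backgrounds given above. Of the subunits outside the naming rule, the ubiquitin receptor Adrm1 rose by log2 0.53 ± 0.13 and 0.47 ± 0.13 under VEH and HDM, while Sem1 had -0.16 ± 0.17 and 0.06 ± 0.17, which did not pass. The shuttle receptor Rad23b, which carries ubiquitinated proteins to the cap, rose by log2 1.64 ± 0.25 and 2.12 ± 0.25, from 142 ± 44.0 and 120 ± 14.2 CPM in normal VEH and HDM to 442 ± 117 and 520 ± 53.8 CPM in the tumours (SD, n = 3).

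All 3 enzymes that bind the proteasome were called higher in both contrasts: Uchl5 by log2 1.03 ± 0.21 and 1.25 ± 0.22, Ube3c by 0.74 ± 0.18 and 0.71 ± 0.18, and Usp14, which trims ubiquitin chains at the cap, by 0.55 ± 0.10 and 0.68 ± 0.10. The ubiquitin-activating enzyme Uba6 rose by 1.23 ± 0.18 and 1.06 ± 0.18, the core assembly chaperone Psmg2 by 0.79 ± 0.20 and 1.11 ± 0.20, and the nuclear activator Psme3 by 0.66 ± 0.13 and 0.89 ± 0.13. By contrast, of the 5 genes that serve transcription of subunit genes 0 were called higher and 2 lower in either contrast. Ngly1, the glycanase that processes Nfe2l1, fell by 1.02 ± 0.19 and 0.77 ± 0.19 on the log2 scale, and Nfe2l3 had -2.89 ± 0.85 and -4.27 ± 0.92. Nfe2l3 was near the floor in tumours, at 0.34, 2.97 and 1.20 CPM in VEH and 0.16, 1.16 and 0.15 CPM in HDM. Its VEH call held in 8 of 14 alternatives. Nfe2l1 itself had -0.37 ± 0.18 and -0.42 ± 0.18, which did not pass (edgeR adjusted p = 0.116 and 0.0645). Across the alternatives the edgeR or DESeq2 adjusted p reached 0.0516 for Uchl5, 0.0647 for Psmg2 and 0.0863 for Nfe2l3 under VEH, and 0.0674 for Adrm1 and 0.0683 for Ngly1 under HDM, while Rad23b, Usp14, Uba6 and Psme3 passed in all.

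The immunoproteasome genes followed another pattern from the constitutive genes they replace. Psmb8 measured 75.2, 75.8 and 82.3 CPM in normal VEH, 93.0, 87.7 and 67.3 CPM in normal HDM, 100, 111 and 90.3 CPM in tumour VEH, and 27.5, 29.3 and 12.0 CPM in tumour HDM. Its 3 HDM tumours lay below all 9 other libraries. Against adjacent lung under HDM, Psmb8, Psmb9 and Psmb10 were called lower in tumours, at log2 -1.85 to -0.91, as were 28.9% of all genes (edgeR). For each gene this call held in 15 of 15 alternatives. Under VEH all 3 lay above 0, and only Psmb10 was called higher, which held in 5 of 15 alternatives. HDM tumours were lower than VEH tumours by log2 -2.13 ± 0.28 for Psmb8, -2.10 ± 0.32 for Psmb9 and -1.69 ± 0.20 for Psmb10, and by -1.09 ± 0.14 and -1.13 ± 0.14 for the activator genes Psme1 and Psme2 (edgeR adjusted p between 0.0274 and 0.0446). These calls between HDM and VEH tumours depended on the processing and on the libraries used. Of 15 alternatives they held in 6 for Psmb8, Psmb10 and Psme2, in 5 for Psme1 and in 4 for Psmb9. Among these, the prefix block compares treatments within a tissue only through the 2 prefixes that join different treatment labels. The edgeR adjusted p reached 0.376 for each of the 5 genes without the 4 libraries of conflicting prefix, whereas the direction held in all alternatives. The interaction passed for none of the 3 catalytic genes (edgeR adjusted p between 0.286 and 0.410).

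As a share per length, Psmb8 made up 21.6%, 24.6% and 23.5% of Psmb8 plus Psmb5 in normal VEH, 32.2%, 30.6% and 25.3% in normal HDM, 26.0%, 24.3% and 26.5% in tumour VEH, and 12.4%, 11.0% and 4.28% in tumour HDM. HDM tumours also had the lowest shares of Psmb9 against Psmb6 (2.86% to 10.6%, other libraries 16.1% to 23.9%) and of Psmb10 against Psmb7 (31.7% to 47.8%, others 58.3% to 72.4%). The size of these shares rests on the deposited lengths, which were 3381 bases for Psmb8 and 899 for Psmb5. In CPM the normal VEH means of Psmb8 and Psmb5 were 77.8 and 68.5. Psmb7 is also less certain because of its overlap with Nek6. Leukocyte markers summed to between 343 and 415 CPM in HDM tumours and to between 264 and 507 CPM in VEH tumours. Of the 8 leukocyte markers 0 passed between HDM and VEH tumours (edgeR), with 6 below 0 and 2 above. Adgre1 was at 69.1, 70.0 and 90.2 CPM in HDM tumours and at 82.6, 42.5 and 62.8 CPM in VEH tumours. Itgam was at 35.6, 70.2 and 41.3 CPM against 40.0, 21.4 and 34.1 CPM. The T-cell markers among the 8 were lower in all 3 HDM tumours than in any VEH tumour, as were 10.7% of all genes. Cd3e, a subunit of the T-cell receptor complex, was at 2.14, 2.66 and 0.061 CPM in HDM tumours and at 7.73, 5.28 and 8.49 CPM in VEH tumours. Cd8a, of cytotoxic T cells, was at 4.31, 3.83 and 0.18 CPM against 13.4, 6.99 and 20.3 CPM. Their part in the shares was not tested.

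**Figure D5:**
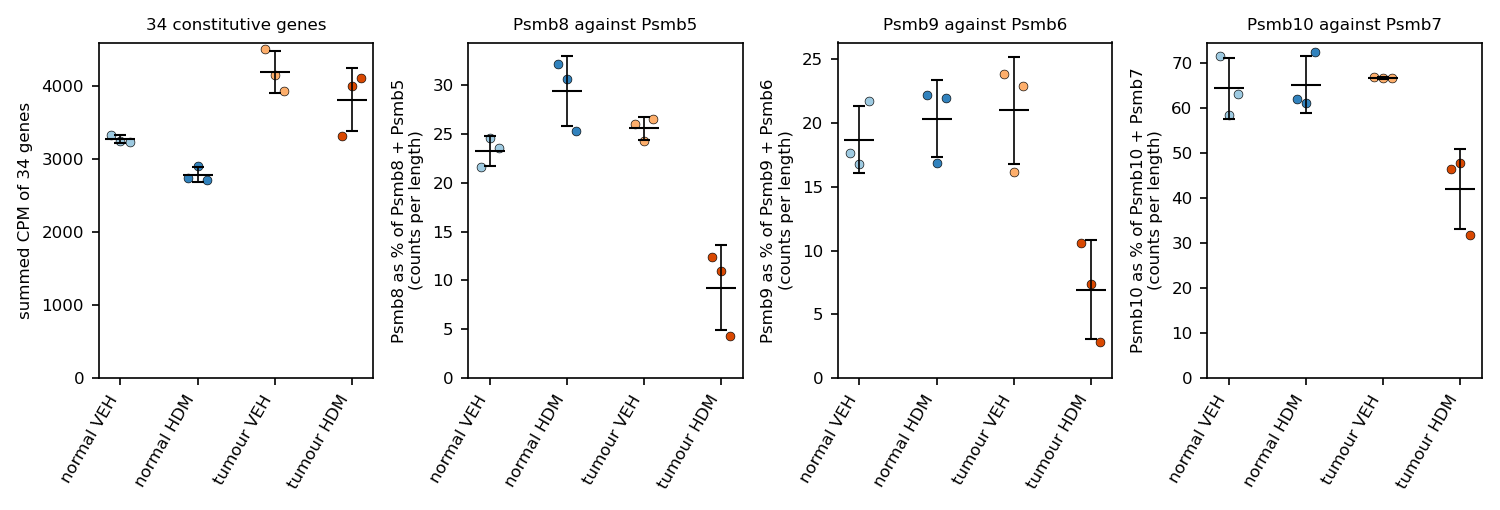
Left, summed level of the 34 genes (CPM); other panels, percent of Psmb8, Psmb9 and Psmb10 in the sum with the constitutive subunit each replaces, per length, by group, with 1 point per library, a line for the mean of 3 and whiskers for its SD. The member sums are higher in tumours of each treatment, and the 3 HDM tumours have the lowest shares in each of the other panels.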

How the data were processed

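Libraries were stranded (dUTP) and paired-end, per the labels' protocols, which name both poly(A) selection and rRNA removal without saying which was used. The authors deposited raw read counts per Ensembl gene for 12 libraries with gene lengths, per the file headers. The submitters' processing notes name Trim Galore, STAR, featureCounts, Subread and mm39, without versions, and strand use in counting and the annotation are not given in the sources used here. Symbols and coordinates came from GENCODE M39 on GRCm39, which held 78168 of 78298 identifiers. For 0 of the 34 members did the deposited length equal the exon length in that release, so the authors' gene models differ from those coordinates.

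The analysis used edgeR 4.0.16 under R 4.3.3: filterByExpr with a minimum count of 10, TMM scaling, robust quasi-likelihood fit with a coefficient per group over all 12 libraries, two-sided F-tests, with p-values of each of the 5 comparisons adjusted over its 22190 genes (Benjamini-Hochberg) and a threshold of 0.05. A standard error is the size of the log2 fold change over root F. TPM used the deposited lengths. The procedure was also run on simulated counts with the same spread for every gene and few changed genes. That run does not show how it performs on contrasts where many genes differ. The members, roles, pathway list and marker lists were chosen with earlier results of these data known, so no p-value over a list is given and lists are described by counts and medians beside all genes. Members given with each library's value were the 3 largest and 3 smallest in each tumour contrast, the catalytic subunits, Psmd14, the chaperones, and the 3 of smallest p where none passed.

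Alternatives changed the scaling (DESeq2 1.42.0 size factors, or library size alone), the filter (none, or 10 counts or more in each library), the test (DESeq2 Wald), the libraries (compared groups alone, the 4 with conflicting prefixes removed, or each left out in turn) or the model (a block for replicate number or for prefix). No pairing entered the test because replicate numbers do not follow the prefixes and 2 prefixes join different treatments.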

Additional observations from a re-analysis of the deposited data

How the results depend on the processing

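Direction of the members' median held in all comparisons under every alternative run. Scaling by library size only moved the median of all genes under VEH from -0.11 to 0.03 and under HDM from -0.08 to 0.10, and the members' medians to 0.44 and 0.53. The prefix block left 9 members higher, and 9 changed, under VEH (13.8% and 26.1% of all genes) and under HDM (17.1% and 38.9%), and a median of -0.11 for HDM against VEH in normal lung. That median depends on the 2 prefixes that join different treatment labels. Library-size scaling gave 26 members changed and 26 higher under HDM (53.6% and 27.8% of all genes). At least 10 counts in every library gave a median of 0.22 under HDM, and removal of the 4 libraries of conflicting prefix gave 0.49 under VEH. The DESeq2 Wald test called 2 members, 2 of them lower, between HDM and VEH tumours (5.91% and 4.76% of all genes). The cause of these shifts was not tested.

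Leaving out 1 library at a time, the count changed and the count higher ran from 11 to 14 under VEH and from 12 to 26 under HDM. The medians ran from 0.29 to 0.50 under VEH (highest without tumour VEH replicate 3), 0.35 to 0.52 under HDM, -0.26 to -0.10 for HDM against VEH in tumours, -0.31 to -0.24 in normal lung and 0.035 to 0.18 for the interaction.

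Replicate numbers did not pair the libraries: of 18 pairs with the same number, 8 had a correlation of deviations above 0.1 (range -0.36 to 0.30). With the replicate block, 13 members were changed under VEH and 14 under HDM, and 0 in the other comparisons.

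The values that changed sign were those of genes that had not passed. Under VEH, Psmd5 was -0.027 with DESeq2 size factors and with the Wald test, -0.080 with 10 counts in every library, -0.067 with the prefix block and -0.042 without the conflicting libraries. Psmd10 was -0.028 with DESeq2 size factors, -0.027 with the Wald test, -0.074 with 10 counts in every library and -0.0067 with the replicate block. Psma1 was 0.090 with library-size scaling, 0.0062 with no filter and 0.026 without the conflicting libraries. Leaving out 1 library gave -0.13 to 0.11 for Psmd5, -0.10 to 0.20 for Psmd10, -0.080 to 0.051 for Psma1, -0.14 to 0.34 for Psmb6 and -0.28 to 0.0058 for Sem1.

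Under HDM, Psmd10 was -0.055 with DESeq2 size factors, -0.054 with the Wald test, -0.051 without the conflicting libraries, -0.13 with 10 counts in every library, -0.12 with the prefix block and -0.026 with only the compared groups. Sem1 was -0.0024 with DESeq2 size factors, -0.0021 with the Wald test and -0.078 with 10 counts in every library. With 10 counts in every library Psmb6 was -0.0023 and Psmd9 was -0.055, and with the prefix block Psmb6 was -0.016. With library-size scaling and without the conflicting libraries, Psmd13 was 0.086 and 0.071 and Psma2 was 0.13 and 0.032. Leaving out 1 library gave -0.016 to 0.28 for Sem1, -0.12 to 0.14 for Psmd13, -0.059 to 0.22 for Psma2 and -0.039 to 0.36 for Psmd9.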
